A study of Mus musculus with 7 samples.

Results

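The receptor RANK and the proteins that carry its signal to non-canonical NF-κB were followed through 9 genes, out of 20839 genes in the per-sample tables of single-cell RNA sequencing of mouse medullary thymic epithelial cells (mTECs). The 9 were chosen by name for their place in that route, with earlier results of these data known. The genes are Tnfrsf11a, Cd40 and Ltbr, which encode receptors, Tnfrsf11b, which encodes the decoy receptor osteoprotegerin, Traf6 and Map3k14, which encode signal transducers, Relb and Nfkb2, which encode the NF-κB subunits, and Nfkbia, which encodes an inhibitor of NF-κB. The study removed Aire-expressing mTECs with an antibody against RANKL, the ligand of RANK, and sequenced mTECs during the recovery. C57BL/6 mice received 3 treatments of 100 μg of anti-RANKL antibody in 1 week, and their thymi were taken at 2, 4, 6 and 10 weeks, when the mice were 4, 6, 8 and 12 weeks old. Isotype antibody controls were given the same dose and taken at weeks 2 and 10 only, so the libraries of weeks 4 and 6 had no control of their own age. A further library came from 6-week-old Aire-CreERT2 R26-CAG-Stopfl-zsGreen mice treated over 10 days with 2 mg of tamoxifen on alternate days, in which the recombinase acts in cells that express Aire while tamoxifen is present and ZsGreen then marks those cells and their descendants. Each of the 7 libraries was 1 pool of 3 thymi sorted for EpCAM and against CD45, so a time point and its library cannot be told apart.

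RANK, CD40 and the lymphotoxin β receptor are members of the TNF receptor superfamily whose signals, received from thymocytes and lymphoid tissue inducer cells, are needed for a normal thymic medulla. Their engagement frees the kinase NIK from constant degradation, NIK drives the processing of p100 to p52, and p52 enters the nucleus with RelB, while TRAF6 leads from RANK and CD40 to the faster canonical arm that IκBα restrains. Osteoprotegerin is secreted and binds RANKL away from RANK, and mice without RelB or NIK activity have few mature mTECs.

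In the mouse genome build GRCm38 Tnfrsf11a spans chr1:105780718-105847981 on the plus strand, Cd40 chr2:165055627-165072948 on the plus strand, Ltbr chr6:125306571-125313885 on the minus strand and Tnfrsf11b chr15:54250619-54278484 on the minus strand. Traf6 lies at chr2:101678429-101701669 on the plus strand, Map3k14 at chr11:103219762-103267472 on the minus strand, Relb at chr7:19606217-19629438 on the minus strand, Nfkb2 at chr19:46304320-46312385 on the plus strand and Nfkbia at chr12:55489410-55492647 on the minus strand. The annotated span of Map3k14 overlaps another gene on its own strand, 1700028N14Rik, so its counts are less certain than those of the others. RefSeq promoter entries of GRCm38.p6 matched 6 of the 9 genes and covered 8 start sites. The κB consensus, searched on both strands in the 250 bases before each start, was present for 2 of these 6 genes, Nfkbia and Nfkb2, against 8.23% of all 27025 gene symbols and 7.25% of all 32851 promoters. The windows below are shown because Tnfrsf11a and Ltbr are receptors whose levels differed in opposite directions between the mTEC classes described next, and because Nfkbia and Nfkb2 held the matches. For Nfkb2 the stretches of its first start site are shown, and its other two start sites held 1 match each. The last 5 bases of the Tnfrsf11a window are not shown. Capitals mark the bases that match the κB consensus, each sequence reads 5′ to 3′ on the strand of its gene, and a match describes letters and not a bound site.
Tnfrsf11a, chr1:105780473-105780717, plus strand: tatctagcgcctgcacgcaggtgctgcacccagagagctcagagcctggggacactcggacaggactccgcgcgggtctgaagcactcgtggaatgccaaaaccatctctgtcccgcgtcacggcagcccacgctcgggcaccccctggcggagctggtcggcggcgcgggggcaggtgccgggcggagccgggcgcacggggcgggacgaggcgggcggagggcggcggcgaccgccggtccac
Ltbr, chr6:125313886-125314135, minus strand: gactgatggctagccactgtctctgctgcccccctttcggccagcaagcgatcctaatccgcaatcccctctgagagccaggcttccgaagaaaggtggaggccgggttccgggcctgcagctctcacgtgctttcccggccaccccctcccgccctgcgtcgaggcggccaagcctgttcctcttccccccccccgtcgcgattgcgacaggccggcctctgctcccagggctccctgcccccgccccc
Nfkbia, chr12:55492648-55492897, minus strand: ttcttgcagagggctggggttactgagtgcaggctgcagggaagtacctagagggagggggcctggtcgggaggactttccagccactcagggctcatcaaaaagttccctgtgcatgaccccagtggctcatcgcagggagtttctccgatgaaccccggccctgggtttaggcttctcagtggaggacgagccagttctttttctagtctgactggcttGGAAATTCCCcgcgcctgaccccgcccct
Nfkb2, chr19:46304693-46304712, plus strand: gtcacGGGAATTCCCCccct
Nfkb2, chr19:46304717-46304736, plus strand: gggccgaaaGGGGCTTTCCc

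Cells without Ptprc, the gene of CD45, were sorted by 4 gates: Aire above 1.5 on the deposited natural log scale, which is 3.48 unique molecular identifiers (UMIs) per 10000 of a cell; Ccl21a above 4, which is 53.6 UMIs per 10000; any Trpm5; and at least 3 of the 4 cell cycle genes Top2a, Birc5, Cdk1 and Ube2c. The libraries held 730 to 1475 cells, 8453 in all, with a median depth between 4299.5 UMIs per cell in the week 6 anti-RANKL library and 16809 in the week 2 isotype library, and any pair shared at most 7 cell barcodes. The Aire-high gate held 456 and 549 cells of the controls of weeks 2 and 10, and 62, 22, 109 and 453 cells of the anti-RANKL libraries of weeks 2, 4, 6 and 10. The Ccl21a-high gate held 160 and 208 control cells against 684, 944, 334 and 246. The summed tuft cell markers ran from 7.06 to 23.8 UMIs per 10000 in the Trpm5 gate over the 7 libraries and reached at most 1.22 in the Aire-high and Ccl21a-high gates, and the summed T cell markers stayed between 0.0529 and 0.704 in the Aire-high gate. For the tests each cell entered 1 exclusive class: Aire-high, Ccl21a-high and Trpm5 classes held cells that passed their own gate alone and were not cycling, and a class counted in a library with at least 10 cells. UMIs were summed per library and class, levels are UMIs per 10000 UMIs of the class, and differences between classes are log2 differences with their standard error (SE) from limma over 8773 genes, with the library as a block. The differences are on the scale of log2(CPM + 5) (CPM, UMIs scaled to a common total per class), which understates the change of genes at low levels.

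Aire-high cells carried more of the receptors RANK and CD40, of osteoprotegerin, of both NF-κB subunits, of Traf6 and of Nfkbia than Ccl21a-high cells, and less of Ltbr. Map3k14 was the member that did not pass the test between these classes. Of the 9 members 7 were higher, where 21.2% of all genes tested were higher, and 1 was lower, where 36.2% of all genes were, at an adjusted p below 0.05 by limma with Benjamini-Hochberg adjustment. The median log2 difference of the members was 1.01 and that of all genes tested was −0.18. The ranges of the class levels over the 7 libraries were apart for 8 of the 9 members. The share of all genes tested with ranges apart was not computed, so this count has no background. When libraries were scaled by median-of-ratios size factors instead of their totals, the median change per gene was 0.166 and the share of higher genes among those called moved from 36.9% to 52.3%, while every member kept its direction.

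**Figure D1:**
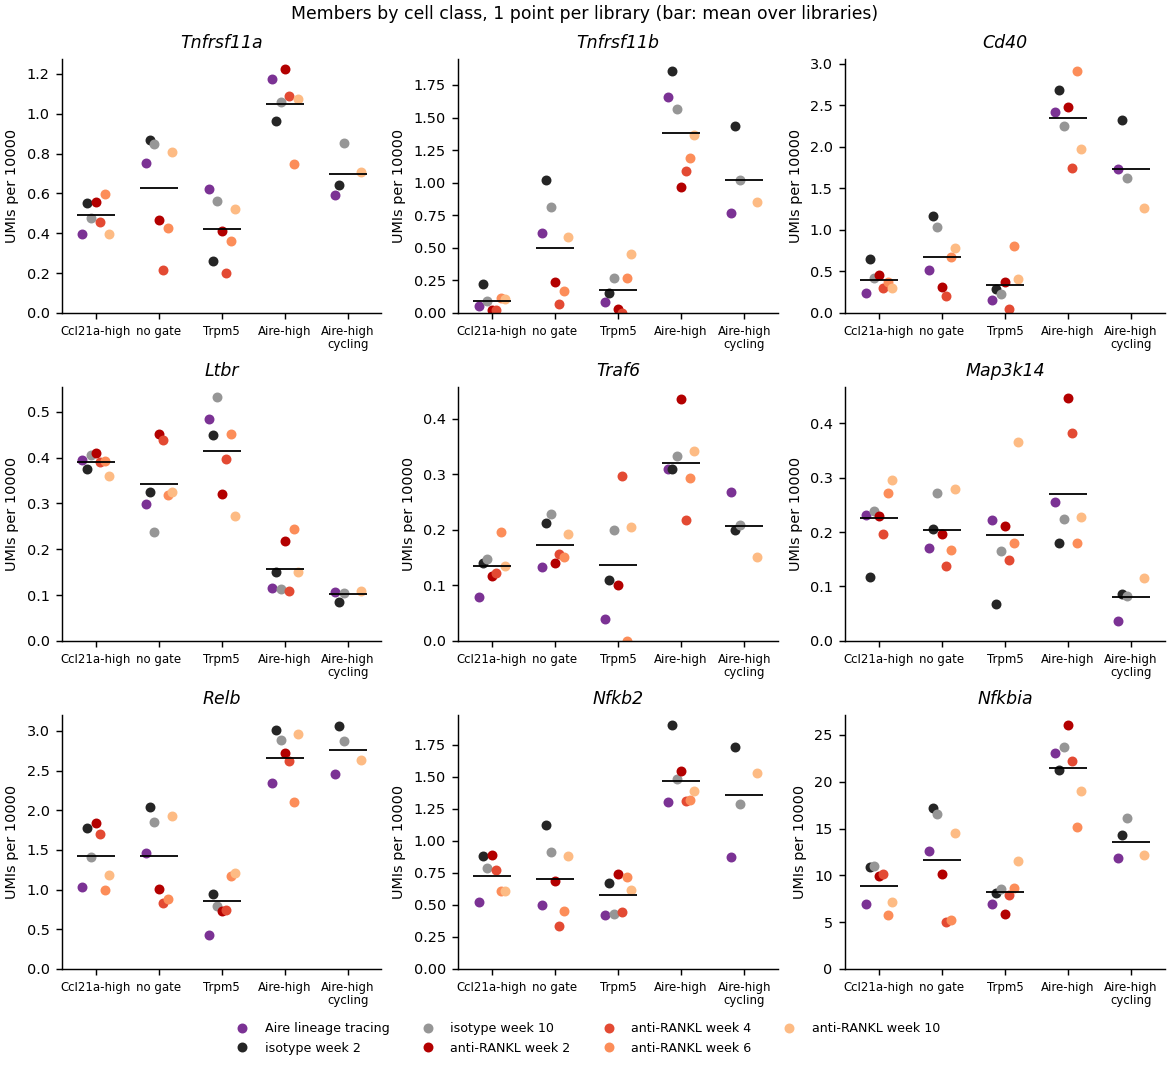
Levels of the 9 members in UMIs per 10000 UMIs (vertical axes, 1 scale per panel) in 5 exclusive cell classes (horizontal axes), with 1 point per library and a bar at the mean over libraries. The points of the Aire-high class lie above all points of the Ccl21a-high class for 7 members, below them for Ltbr and among them for Map3k14.

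Tnfrsf11a, the gene of RANK itself, stood at 0.748, 1.07 and 1.22 UMIs per 10000 (lowest, median and highest of the 7 libraries) in Aire-high cells and at 0.397, 0.477 and 0.597 in Ccl21a-high cells. The lowest Aire-high value lay above the highest Ccl21a-high value, and the log2 difference was 1.02 (SE 0.198, higher in 7 of 7 libraries, limma adjusted p = 8.87e-05). Cd40, whose product receives CD40 ligand from T cells, had the values 1.75, 2.42 and 2.91 in Aire-high cells and 0.236, 0.371 and 0.651 in Ccl21a-high cells. No library of one class reached the range of the other, and the difference was 2.48 (SE 0.254, higher in 7 of 7 libraries, limma adjusted p = 4.91e-09). Ltbr, the gene of the lymphotoxin β receptor, went the other way, with 0.109, 0.149 and 0.244 in Aire-high cells and 0.360, 0.393 and 0.410 in Ccl21a-high cells. Its difference was −1.12 (SE 0.149, higher in 0 of 7 libraries, limma adjusted p = 3.93e-07), which made it the one receptor of the 3 with its highest levels outside the Aire-high class.

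Tnfrsf11b showed the widest separation of the members. Its levels were 0.964, 1.37 and 1.86 in Aire-high cells against 0.0215, 0.0902 and 0.220 in Ccl21a-high cells, a log2 difference of 3.47 (SE 0.293, higher in 7 of 7 libraries, limma adjusted p = 1.68e-10). The gene of the receptor and the gene of the soluble decoy were both higher in Aire-high cells. Traf6, an adaptor and ubiquitin ligase, stood at 0.218, 0.310 and 0.435 in Aire-high cells and 0.0800, 0.135 and 0.197 in Ccl21a-high cells, a difference of 1.01 (SE 0.262, higher in 7 of 7 libraries, limma adjusted p = 0.00184). Map3k14, the gene of the kinase NIK, had 0.179, 0.228 and 0.446 against 0.117, 0.232 and 0.296. The ranges overlapped, Aire-high cells were higher in 4 of 7 libraries, and the difference of 0.19 (SE 0.195, limma adjusted p = 0.417) did not pass.

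Relb, the transactivating subunit of the non-canonical route, stood at 2.10, 2.73 and 3.02 UMIs per 10000 in Aire-high cells and at 0.991, 1.41 and 1.84 in Ccl21a-high cells. Nfkb2, which encodes p100 and p52, had 1.31, 1.39 and 1.91 against 0.524, 0.776 and 0.888. The classes did not overlap for either subunit, and the log2 differences were 0.91 for Relb (SE 0.179, limma adjusted p = 9.85e-05) and 0.98 for Nfkb2 (SE 0.147, limma adjusted p = 2.68e-06), with Aire-high cells higher in 7 of 7 libraries for both. Nfkbia, the gene of IκBα and itself a target of NF-κB, gave 15.2, 22.2 and 26.1 in Aire-high cells and 5.74, 9.88 and 11.0 in Ccl21a-high cells. Its difference of 1.30 (SE 0.190, limma adjusted p = 1.76e-06) was again seen in 7 of 7 libraries.

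**Figure D2:**
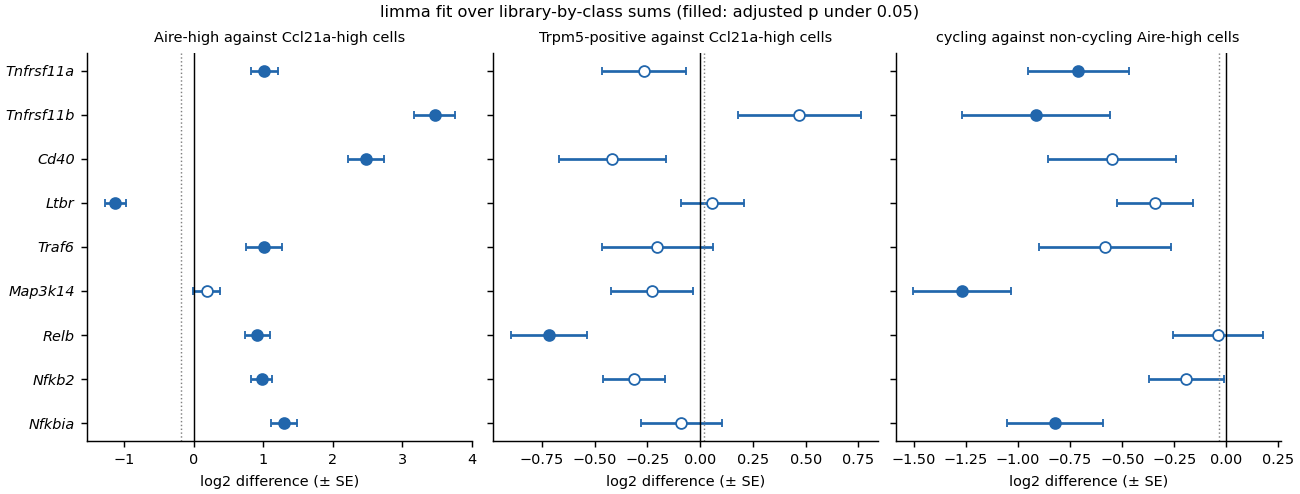
Log2 difference of each member (rows) with its standard error in 3 comparisons of classes, filled where the limma adjusted p was below 0.05, with a dotted line at the median of all genes tested. Tnfrsf11b at 3.47 and Cd40 at 2.48 lie farthest to the right in the comparison of Aire-high with Ccl21a-high cells, and Ltbr at −1.12 lies to the left.

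Detection was compared at equal depth, after each cell was thinned to 2000 UMIs and 177 shallower cells were left out, 116 of them from the week 4 and 61 from the week 6 anti-RANKL library. Before thinning, the median depth was 7267 to 21905 UMIs in the Aire-high gate and 4372 to 14340.5 in the Ccl21a-high gate by library. At that depth Tnfrsf11b was seen in 12.6, 18.6 and 27.3% of cells in the Aire-high gate (lowest, median and highest library) and in 0.292, 0.625 and 3.85% of cells in the Ccl21a-high gate. Without thinning the medians were 49.0% and 5.69%. Cd40 was seen in 26.0, 31.8 and 35.7% of thinned Aire-high cells and in 4.00, 6.62 and 10.6% of thinned Ccl21a-high cells, with unthinned medians of 72.8% and 16.5%. For these genes no library of one gate reached the other at equal depth. Tnfrsf11a was seen in 7.77, 18.4 and 22.7% of thinned Aire-high cells and 6.10, 7.49 and 11.3% of thinned Ccl21a-high cells, with unthinned medians of 59.6% and 26.2%, and here the ranges met in the week 6 anti-RANKL library, the lowest of the Aire-high gate. Ltbr, the receptor with the reverse order, was seen in 0, 3.95 and 6.80% of thinned Aire-high cells and in 5.28, 7.37 and 9.36% of thinned Ccl21a-high cells, with unthinned medians of 14.7% and 26.0%. The share of 0 came from the 22 Aire-high cells of the week 4 anti-RANKL library, and 0 of 22 allows a share of cells with a UMI of up to 13.6% by the limit of 3 counts, or 15.4% by the exact binomial interval. Relb was seen in 29.1, 41.9 and 54.5% of thinned Aire-high cells against 15.0, 21.2 and 28.4%, with unthinned medians of 83.4% and 51.2%. The thinned ranges overlapped for Nfkb2 (14.4 to 32.2% against 6.97 to 16.9%) and Traf6 (0 to 9.68% against 1.75 to 4.30%). They also overlapped for Map3k14 (3.07 to 5.93% against 2.32 to 6.91%), and were apart for Nfkbia (80.6 to 100% against 59.8 to 73.8%).

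A cell type free of these transcripts could not be found to set the level of free RNA. The 73 cells with Ptprc and Cd3 transcripts, whose median depth was 3091 to 16587 UMIs by library, carried 3.89 UMIs per 10000 of the epithelial gene Epcam where cells without Ptprc carried 6.98, and 0.510 of Tnfrsf11a against 0.684. Their thinned shares ran from 0 to 10.0% for Tnfrsf11b and from 0 to 18.2% for Cd40, on 6 to 20 cells per library. The shares in the Ccl21a-high gate lay within these ranges, so low detection there was not separated from transcripts of other cells, and the part of free RNA in it was not tested.

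Trpm5-positive cells, the class that holds tuft cells, carried less of most members than Aire-high cells and differed from Ccl21a-high cells in Relb. Against Aire-high cells 7 members were lower, where 20.3% of all genes were, and Ltbr was higher, where 37.1% of all genes were, with a members' median of −1.29 and a median over all genes of 0.17. Under median-of-ratios scaling the median change per gene in this comparison was −0.231, and the share of higher genes among those called moved from 64.6% to 44.3%. Cd40 stood at 0.0496, 0.286 and 0.811 UMIs per 10000 in Trpm5-positive cells, a log2 difference to Aire-high cells of −2.90 (SE 0.254, higher in 0 of 7 libraries, limma adjusted p = 2.71e-10). Tnfrsf11b stood at 0, 0.150 and 0.456, a difference of −3.00 (SE 0.293, higher in 0 of 7, limma adjusted p = 2e-09), and its level of 0 came from the week 4 anti-RANKL library. That library held 42 cells and 201911 UMIs in this class. Counts here were low: Tnfrsf11b had 0 to 20 UMIs by library, and the lowest Cd40 value was 1 UMI. Tnfrsf11a stood at 0.199, 0.413 and 0.625, below every Aire-high value, with a difference of −1.29 (SE 0.198, higher in 0 of 7, limma adjusted p = 3.70e-06). Ltbr stood at 0.273, 0.449 and 0.531, above every Aire-high value, with a difference of 1.18 (SE 0.149, higher in 7 of 7, limma adjusted p = 1.69e-07). Map3k14 was again the member that did not pass (−0.42, SE 0.195, limma adjusted p = 0.0678).

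Against Ccl21a-high cells 0 members were higher in Trpm5-positive cells, where 27.0% of all genes were, and 1 was lower, where 25.2% of all genes were. The median of the members was −0.23 and that of all genes was 0.02. The lower member was Relb, at 0.423, 0.797 and 1.21 in Trpm5-positive cells, with a log2 difference of −0.72 (SE 0.179, higher in 2 of 7 libraries, limma adjusted p = 0.00147). The number of lower members depended on the setting: it was 3, with Cd40 and Nfkb2 added, without the week 6 anti-RANKL library, and 5 when cells were gated on thinned values.

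Cycling Aire-high cells, found in at least 10 cells in 4 libraries, carried less of 4 members than non-cycling Aire-high cells and did not differ detectably in the NF-κB subunits. The 4 lower members stand against 16.4% of all genes lower, and 0 members were higher, where 16.0% of all genes were, with a members' median of −0.58 and a median over all genes of −0.03. Map3k14 had 0.0358, 0.0838 and 0.116 UMIs per 10000 (lowest, median and highest of 4) in cycling cells, from 2 to 19 UMIs per library. Its difference was −1.27 (SE 0.236, higher in 0 of 4 libraries, limma adjusted p = 1.57e-04). The ranges of the 2 classes were apart for Map3k14 and for Ltbr, which did not pass (limma adjusted p = 0.151). Ranges apart were not counted over all genes. Nfkbia had 11.9, 13.2 and 16.1 in cycling cells, a difference of −0.82 (SE 0.230, higher in 0 of 4, limma adjusted p = 0.00698). Tnfrsf11a had 0.591, 0.675 and 0.855 (−0.71, SE 0.240, higher in 0 of 4, limma adjusted p = 0.0239) and Tnfrsf11b had 0.770, 0.936 and 1.44 (−0.91, SE 0.355, higher in 0 of 4, limma adjusted p = 0.0491). The call of Tnfrsf11a was lost without the lineage tracing library or without the week 10 anti-RANKL library, and that of Tnfrsf11b without any single library but the one of week 6, so that 2 to 4 members were lower. Without the library block only Map3k14 passed, and with gates on thinned values only Nfkbia. Relb stood at 2.45, 2.75 and 3.07, within the Aire-high range but for its top value, with a difference of −0.04 (SE 0.217, limma adjusted p = 0.909), and Nfkb2 differed by −0.19 (SE 0.178, limma adjusted p = 0.440).

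Cells that passed none of the 4 gates held more Tnfrsf11b than Ccl21a-high cells, at 0.0715, 0.580 and 1.02 UMIs per 10000, a log2 difference of 1.78 (SE 0.293, higher in 7 of 7 libraries, limma adjusted p = 4.76e-05). It was 1 of 9 members higher, where 15.0% of all genes were, and 0 members were lower, where 10.1% of all genes were, with a members' median of 0.22 and a median over all genes of 0.00. In these cells the members varied with the library: Tnfrsf11b stood at 1.02 and 0.812 in the controls of weeks 2 and 10, at 0.240, 0.0715 and 0.167 in the anti-RANKL libraries of weeks 2, 4 and 6 and at 0.580 in that of week 10. Cd40 in the same cells had 1.17 and 1.04 in the controls and 0.316, 0.210, 0.677 and 0.783 in the anti-RANKL libraries in order of time. Tnfrsf11a had 0.869 and 0.849 against 0.467, 0.214, 0.427 and 0.808, and Ltbr 0.325 and 0.238 against 0.452, 0.439, 0.318 and 0.325. For the first 3 of these genes the week 4 library was lowest and the week 10 library lay nearest to the controls. Over all cells without Ptprc, 6 summed markers of cortical thymic epithelial cells had 1.45 and 2.70 in the controls. They had 4.98, 6.59, 4.95 and 2.97 in the anti-RANKL libraries in order of time. These markers were not summed in cells of no gate, and the part of cortical cells in the values above was not tested. The members higher than in Ccl21a-high cells numbered 2 without the week 2 and 3 without the week 4 anti-RANKL library, with Cd40 added in both, and 4 with the controls and the lineage tracing library alone.

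The other genes of the pathway were taken from 7 lists of ligands, receptors, adaptors, kinases, subunits, inhibitors and targets, 46 genes of which 37 could be tested. Between Aire-high and Ccl21a-high cells 18 were higher and 11 lower, where 21.2% and 36.2% of all genes were, with a median of 0.48. The 6 widest differences past 2-fold were those of Cd80, a costimulatory ligand of mature mTECs (3.14, SE 0.311, limma adjusted p = 2.91e-09), the chemokine gene Ccl20 (2.68, SE 0.618, limma adjusted p = 6.05e-04), Tnfrsf12a, the receptor of TWEAK (−2.44, SE 0.286, limma adjusted p = 5.12e-08), Cd83 (2.32, SE 0.254, limma adjusted p = 1.64e-08), the adaptor Traf1 (2.21, SE 0.245, limma adjusted p = 2.03e-08) and the cytokine gene Tnf (2.15, SE 0.354, limma adjusted p = 9.80e-06).

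Between Trpm5-positive and Ccl21a-high cells 9 of the 37 were higher and 12 lower, where 27.0% and 25.2% of all genes were, with a median of −0.03. The chemokine gene Ccl19 (−2.51), the adhesion genes Vcam1 (−2.07) and Icam1 (−1.26) and Tnfrsf12a (−1.35) were lower, and the transcription factor gene Spib (1.96) and the lymphotoxin gene Ltb (1.36) were higher. Between Trpm5-positive and Aire-high cells 8 were higher and 17 lower, where 37.1% and 20.3% of all genes were, with a median of −0.36. The 6 widest were all lower, Ccl19 (−3.00), Cd80 (−2.35), the inhibitor gene Nfkbie (−2.02), Icam1 (−1.99), the ubiquitin ligase gene Birc2 (−1.88) and Cd83 (−1.85). In cycling Aire-high cells 0 were higher and 9 lower, where 16.0% and 16.4% of all genes were, with a median of −0.25, and 5 were past 2-fold: Ccl20 (−2.94), Traf1 (−2.53), Tnf (−1.51), Cd83 (−1.46) and Cd80 (−1.31). In cells of no gate 10 were higher than in Ccl21a-high cells and 5 lower, where 15.0% and 10.1% of all genes were, with a median of 0.11. There Ccl20 (3.05), Tnf (1.93), Cd80 (1.64), Cd83 (1.41) and Traf1 (1.24) were higher and Ccl19 (−1.14) was lower.

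Over the 32 library and class sums the genes most like each member were named by Pearson's r of log2(CPM + 5) among 8773 genes. The sums share libraries, depth and cells of a common tissue, so r is a description. Tnfrsf11a was followed most closely by Ubd (r = 0.907), Fgd5 (r = 0.889) and Plb1 (r = 0.886), and Cd40 by Il4i1 (r = 0.967), Tdh (r = 0.957) and Ifi30 (r = 0.948). Tnfrsf11b was followed by Srgn (r = 0.956), Tm4sf5 (r = 0.954) and H2-Eb2 (r = 0.950), and Relb by Nfkbie (r = 0.950), Fezf2 (r = 0.923) and Cd82 (r = 0.916). Among the members themselves, r was 0.903 for Relb with Nfkb2, 0.895 for Cd40 with Tnfrsf11b and 0.808 for Tnfrsf11a with Tnfrsf11b. Ltbr had a negative r with Tnfrsf11a (−0.655), Cd40 (−0.817), Tnfrsf11b (−0.783) and Relb (−0.813).

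Along the anti-RANKL time course most members were lower than in the controls at weeks 2 to 6 over all cells without Ptprc, Ltbr was higher at weeks 2 and 4, and at week 10 no member differed from its control by 1.5-fold. With 1 library per time point there was no test, a difference was counted past 1.5-fold of the control (of both controls for weeks 4 and 6), and intervals are exact 95% intervals that cover counting error only. At week 2, 6 members were lower, where 16.9% of all genes were, and 1, Ltbr, was higher, where 19.1% were. At week 4, 7 were lower and Ltbr higher, where 21.3% and 17.3% of all genes were, and at week 6, 5 were lower and 0 higher, where 20.4% and 13.1% were. With each cell weighted equally, 0 members were higher at week 4. At week 10, 0 were lower and 0 higher, where 1.96% and 3.78% of all genes were. The median fold of the members was 0.624, 0.498, 0.597 and 0.933 at the 4 times, against 1.06, 0.999, 0.918 and 1.00 for all genes. In the same cells the levels of Epcam and Krt8 summed to 22.6 and 23.6 in the controls of weeks 2 and 10. They summed to 22.7, 19.3, 16.7 and 21.5 in the anti-RANKL libraries in order of time. The summed markers of cortical thymic epithelial cells had 1.45 and 2.70 and then 4.98, 6.59, 4.95 and 2.97. The part of these differences in the member levels was not tested.

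**Figure D3:**
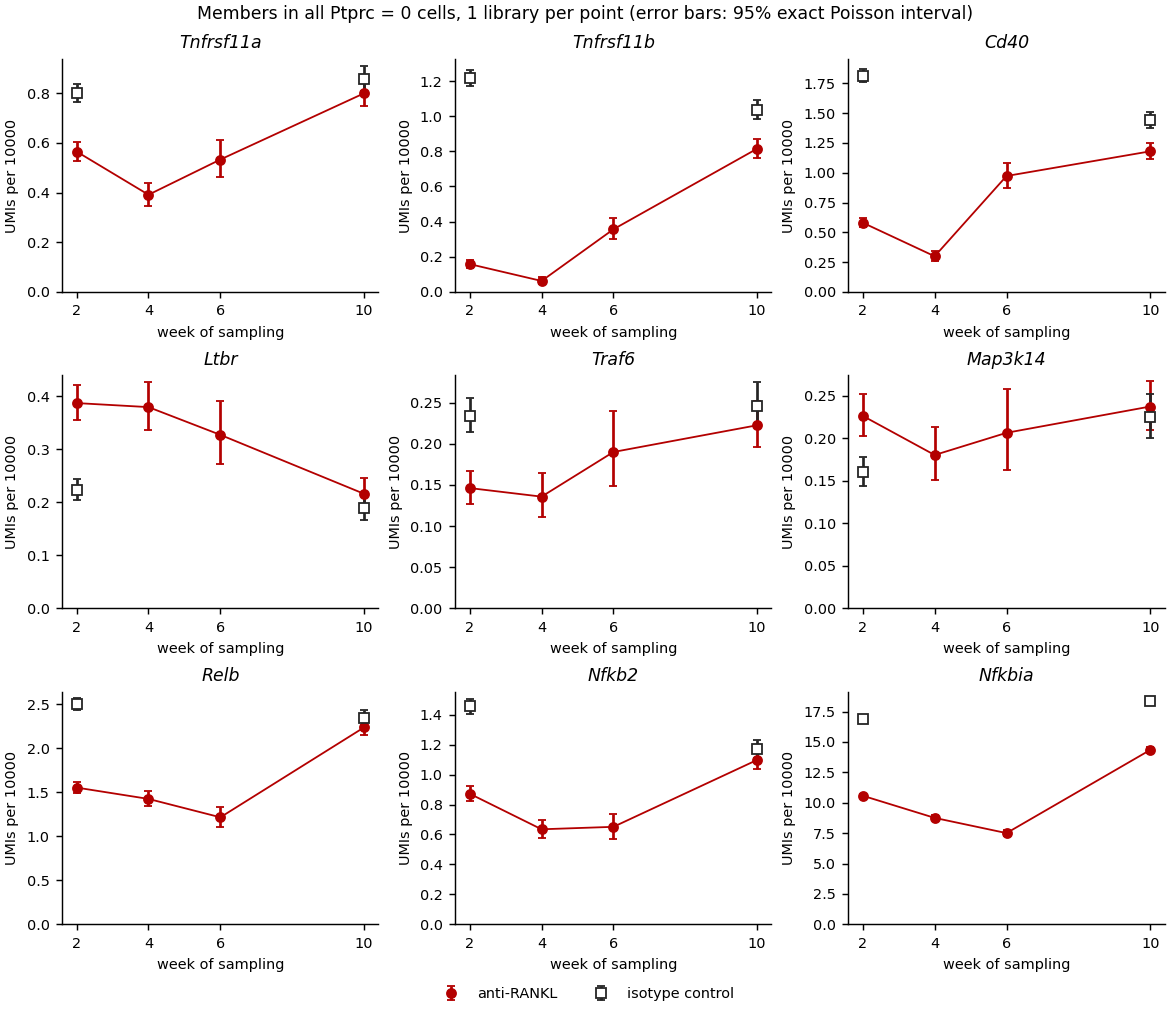
Levels of the 9 members in all cells without Ptprc, in UMIs per 10000 (vertical axes), by weeks after antibody (horizontal axes), with filled points joined by a line for the anti-RANKL libraries, open squares for the isotype controls and bars for exact 95% Poisson intervals. Tnfrsf11b stands at 0.0618 at week 4 and at 0.815 at week 10, and Ltbr lies above both controls at weeks 2, 4 and 6.

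Tnfrsf11b was the member that stood farthest from the controls. It had 1.22 and 1.04 UMIs per 10000 in the controls of weeks 2 and 10 and 0.158, 0.0618, 0.356 and 0.815 in the anti-RANKL libraries of weeks 2, 4, 6 and 10. Its fold over the control was 0.130 at week 2 (95% interval 0.113 to 0.148) and 0.0508 at week 4 over the week 2 control (0.0371 to 0.0680), and at week 10 it was 0.787 (0.722 to 0.857). Cd40 had 1.82 and 1.44 in the controls and 0.580, 0.298, 0.973 and 1.18 in the anti-RANKL libraries, with a fold of 0.319 at week 2 (0.296 to 0.344). Tnfrsf11a had 0.800 and 0.858 in the controls and 0.565, 0.391, 0.533 and 0.800 in the anti-RANKL libraries, with a fold of 0.706 at week 2 (0.649 to 0.768). All 3 were lowest at week 4, and the week 10 values of Tnfrsf11b and Cd40 stayed below both controls.

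Ltbr had 0.224 and 0.189 in the controls and 0.387, 0.379, 0.327 and 0.216 in the anti-RANKL libraries, with a fold of 1.73 at week 2 (95% interval 1.53 to 1.96). Map3k14 had 0.160 and 0.225 in the controls and 0.226, 0.180, 0.206 and 0.237, and since the controls themselves differed by a fold of 1.41 (1.20 to 1.65) no course could be read from it. Traf6 had 0.234 and 0.247 in the controls and 0.146, 0.136, 0.190 and 0.223. Relb had 2.50 and 2.35 in the controls and 1.55, 1.43, 1.22 and 2.24 in the anti-RANKL libraries, and Nfkb2 had 1.46 and 1.17 and then 0.872, 0.635, 0.651 and 1.10. Nfkbia had 16.9 and 18.3 in the controls and 10.6, 8.76, 7.50 and 14.3. Relb and Nfkbia were lowest at week 6, in the library with the lowest median depth.

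A library level moves with the share of each class as well as with the level in its cells, and fewer cells of a class and fewer transcripts per cell cannot be told apart in the whole library. The level was therefore also computed as it would stand if every class kept its control level and only the class shares of the UMIs differed. At week 2 class shares alone gave 0.656 for Tnfrsf11a, and the observed 0.565 was 0.861 of that (95% interval 0.804 to 0.922). The intervals of these ratios cover the counting error of the anti-RANKL library alone. They take the level from shares as exact, although it rests on counts of the control, and are too narrow. For Ltbr the observed level was 1.19 of that from shares (1.10 to 1.30), for Map3k14 it was 1.66 (1.49 to 1.85), and for Traf6, Relb, Nfkb2 and Nfkbia it was 0.838, 0.782, 0.814 and 0.789. For Cd40 it was 0.537 (0.502 to 0.574), and for Tnfrsf11b 0.253 (0.222 to 0.288). Class shares gave a Tnfrsf11b level of 0.623 where 0.158 was observed. A changed make-up within a class is not removed by this calculation. Cells of no gate had 1.02 of Tnfrsf11b in the week 2 control and 0.240 at week 2. Trpm5 cells that also passed the Aire-high or the Ccl21a-high gate numbered 20 and 4 in that control and 8 and 58 at week 2. The part of make-up within classes in these ratios was not tested. At week 4 the ratio of observed to share-based level was 0.123 for Tnfrsf11b, 0.342 for Cd40 and 0.611 for Tnfrsf11a with the week 2 control, and 0.162, 0.464 and 0.649 with the week 10 control. Map3k14 had a ratio of 1.29 with the first control and 0.745 with the second. At week 6 the lowest ratios were 0.426 for Tnfrsf11b, 0.504 for Nfkbia, 0.542 for Nfkb2 and 0.560 for Relb with the week 2 control, and 0.459, 0.484, 0.648 and 0.623 with the week 10 control. At week 10 the ratio ran from 0.809 to 1.08 over the 9 members.

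Within the Ccl21a-high gate few members differed from the control. At week 2 only Tnfrsf11b was lower, where 7.52% of all genes were, and only Map3k14 higher, where 9.83% were. At week 4 only Tnfrsf11b was lower, where 7.52% were, at week 6 Relb and Nfkbia, where 11.0% were, and at week 10, 0 members, where 8.23% were. Each of these lower counts changed when cells with immune transcripts were excluded. Those of weeks 6 and 10 also changed with equal cell weights. At weeks 4, 6 and 10, 0 members were higher, where 5.69%, 7.47% and 10.8% were. The epithelial genes Epcam and Krt8 summed to 26.6 and 23.5 UMIs per 10000 in this gate in the controls and to 21.6, 19.7, 16.8 and 21.6 in the anti-RANKL libraries in order of time, lowest in the week 6 library as Relb and Nfkbia were. The part of this library difference in the lower Relb and Nfkbia was not tested. Tnfrsf11b in this gate had 0.198 and 0.164 UMIs per 10000 in the controls of weeks 2 and 10 and 0.0193, 0.0224, 0.133 and 0.142 in the anti-RANKL libraries. Its fold was 0.0979 at week 2 (95% interval 0.0520 to 0.175), from 16 UMIs in 684 cells, and 0.114 at week 4 over the week 2 control (0.0533 to 0.222), from 11 UMIs in 944 cells. Tnfrsf11a in the same gate had 0.540 and 0.467 in the controls and 0.548, 0.451, 0.546 and 0.443 in the anti-RANKL libraries, a range that took in both controls, with a fold of 1.01 at week 2 (0.834 to 1.24). Ltbr likewise had 0.355 and 0.360 and then 0.390, 0.367, 0.393 and 0.330. Cd40 had 0.621 and 0.440 and then 0.463, 0.296, 0.368 and 0.324. Map3k14 had 0.121 and 0.239 in the controls, which differed from each other by a fold of 1.97 (1.22 to 3.24), more than the 1.83 of week 2. The 5 summed Aire-high markers in this gate had 175 and 198 UMIs per 10000 in the controls and 156, 155, 136 and 191 in the anti-RANKL libraries in order of time. Of these 5, chosen after their values were seen, Aire had 0.274 and 0.530 in the controls and 0.141, 0.0510, 0.603 and 0.631, and Cd80 had 0.0968 and 0.0954 and then 0.0242, 0.0122, 0.0381 and 0.0625. The 7 summed cycling markers had 2.79 and 2.60 and then 0.471, 0.910, 1.09 and 0.477. In the exclusive Ccl21a-high class, which leaves out cycling cells and cells of the other gates, Tnfrsf11b had 0.220 and 0.0902 in the controls, from 47 and 14 UMIs, and 0.0215, 0.0241, 0.113 and 0.109 in the anti-RANKL libraries. Weeks 2 and 4 lay below both controls there too, but the controls stood apart from each other, and weeks 6 and 10 lay between them. The part of other cells in the Tnfrsf11b values was not tested.

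**Figure D4:**
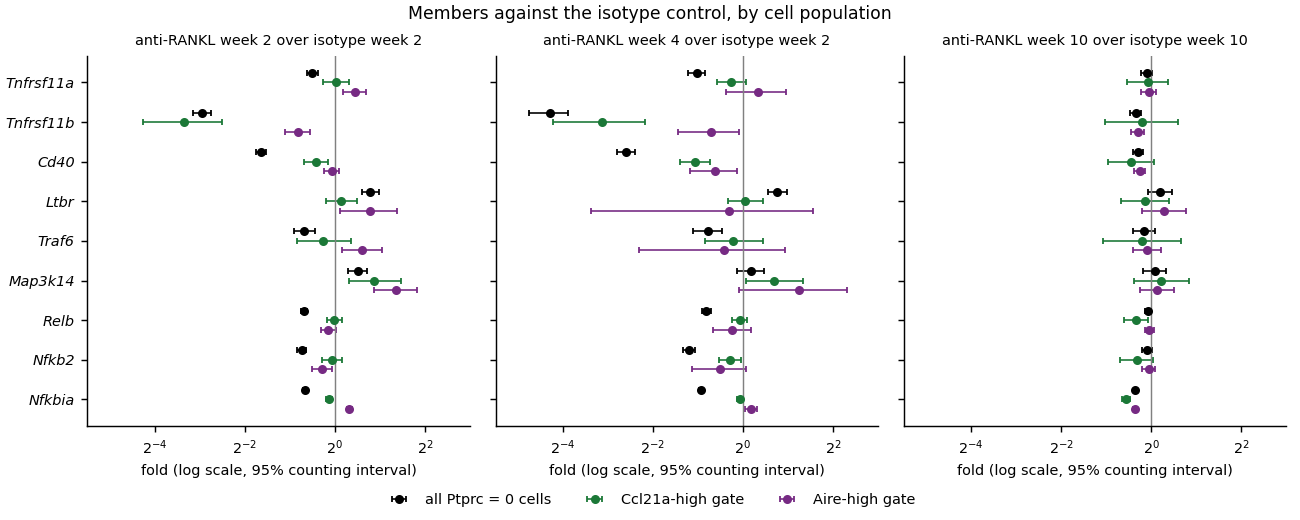
Fold of each member over the isotype control (log axis) at weeks 2, 4 and 10 in all cells without Ptprc, in the Ccl21a-high gate and in the Aire-high gate, with exact 95% intervals for counting error. Tnfrsf11b at week 2 lies at 0.130 in all cells, at 0.0979 in the Ccl21a-high gate and at 0.567 in the Aire-high gate, while Tnfrsf11a lies at 0.706, 1.01 and 1.35.

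Within the Aire-high gate most members lay within 1.5-fold of the control. At week 2 only Tnfrsf11b was lower, where 13.7% of all genes were, and Ltbr, Traf6 and Map3k14 were higher, where 16.0% were. At weeks 4, 6 and 10, 0 members were lower, where 24.7%, 18.8% and 4.88% of all genes were. Map3k14 was higher at week 4, where 24.2% of all genes were, Ltbr at week 6, where 13.7% were, and 0 members at week 10, where 3.72% were. These counts changed with the setting: with gates on thinned values 2 members were lower at week 4, 3 were lower at week 6 and Ltbr was no longer higher at week 6, and with each cell weighted equally 3 were lower at week 6. At week 6 the members' median fold was 0.739, against 0.919 for all genes. Relb had folds of 0.652 (95% interval 0.552 to 0.766) and 0.690 (0.582 to 0.812) over the controls of weeks 2 and 10 at that time, Nfkb2 had 0.619 (0.496 to 0.764) and 0.798 (0.637 to 0.991), and Nfkbia had 0.722 (0.679 to 0.767) and 0.646 (0.607 to 0.687). In this gate Epcam and Krt8 summed to 20.7 and 22.9 in the controls and 24.4, 22.9, 16.0 and 20.6 in the anti-RANKL libraries in order of time. The 5 summed Aire-high markers had 336 and 343 and then 390, 339, 264 and 313. Both sums were lowest at week 6, and the part of this library difference in the lower values was not tested. Tnfrsf11b in this gate had 1.75 and 1.49 UMIs per 10000 in the controls and 0.989, 1.06, 1.15 and 1.22 in the anti-RANKL libraries, below both controls at each time, with a fold of 0.567 at week 2 (95% interval 0.466 to 0.683). Among cells that also held no UMI of 6 immune genes the week 2 fold was 0.692 and no longer past 1.5-fold. Tnfrsf11a had 0.886 and 1.02 in the controls and 1.20, 1.11, 0.703 and 0.982, with a fold of 1.35 at week 2 (1.13 to 1.61). Cd40 had 2.63 and 2.08 in the controls and 2.50, 1.69, 2.48 and 1.74. Map3k14 had 0.157 and 0.193 in the controls and 0.402, 0.371, 0.166 and 0.212, with a fold of 2.57 at week 2 (1.82 to 3.56). The 7 summed cycling markers of this gate had 4.04 and 3.86 in the controls and 1.17, 0.476, 2.56 and 4.90 in the anti-RANKL libraries in order of time, and their part in the Map3k14 values was not tested. In the exclusive Aire-high class, which holds no cycling cells, Map3k14 had 0.180 and 0.224 in the controls and 0.446 and 0.382 at weeks 2 and 4. The 5 summed Ccl21a-high markers of the gate had 7.64 and 8.34 in the controls and 16.2, 32.3, 45.1 and 9.75, and the 6 summed markers of cortical thymic epithelial cells had 0.679 and 0.884 and then 1.36, 2.70, 2.27 and 0.777. In the exclusive class, which leaves out cells of the Ccl21a-high gate, Ltbr had 0.149 and 0.113 in the controls and 0.218 and 0.244 at weeks 2 and 6. Traf6 in that class had 0.310 and 0.333 in the controls and 0.435 at week 2. The week 2 values of Ltbr and Traf6 there were within 1.5-fold of the week 2 control. The gate held 62 and 22 cells at weeks 2 and 4, which limits these values.

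In the lineage tracing library the cells without Ptprc were split by any transcript of Aire and of ZsGreen into 221 cells with both, 66 with Aire only, 413 with ZsGreen only and 618 with neither, with median depths of 15173, 10644.5, 9268 and 7870 UMIs. Both classes with Aire transcripts held more of Tnfrsf11a, Cd40, Tnfrsf11b, Relb and Nfkbia than both classes without them. In that order of classes Tnfrsf11a stood at 1.02, 0.603, 0.457 and 0.351 UMIs per 10000, Cd40 at 1.45, 1.18, 0.233 and 0.211, and Tnfrsf11b at 0.937, 0.387, 0.185 and 0.109. Relb stood at 2.09, 1.72, 0.993 and 0.925, and Nfkbia at 16.9, 11.8, 7.37 and 6.23. Ltbr was the reverse, at 0.200, 0.205, 0.405 and 0.369. All members but Map3k14 and Ltbr were highest in cells with both transcripts, which were also the deepest. The classes also differed in their Ccl21a-high cells, which made up 39 of the 221, 37 of the 66, 287 of the 413 and 512 of the 618 cells. Outside the Ccl21a-high gate Cd40 stood at 1.63 in cells with both and 1.87 in cells with Aire only, Traf6 at 0.229 and 0.249, and Tnfrsf11a at 1.13 and 0.726. With 1 library there was no test of these differences.

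Outside the Ccl21a-high gate, cells with ZsGreen only had 0.591 UMIs per 10000 of Tnfrsf11a (95% Poisson interval 0.468 to 0.737), against 0.266 (0.167 to 0.403) in cells with neither. Cd40 had the opposite order there, at 0.165 (0.103 to 0.249) against 0.327 (0.215 to 0.475), and Tnfrsf11b had 0.501 (0.388 to 0.637) against 0.399 (0.275 to 0.561). The intervals of Cd40 and of Tnfrsf11b overlapped between these classes, and those of Tnfrsf11a did not. Within the gate the intervals overlapped for all 3 genes: Cd40 had 0.261 (0.209 to 0.323) against 0.190 (0.152 to 0.235), Tnfrsf11a had 0.403 (0.337 to 0.478) against 0.366 (0.312 to 0.427), and Tnfrsf11b 0.0553 (0.0328 to 0.0874) against 0.0558 (0.0361 to 0.0824).

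**Figure D5:**
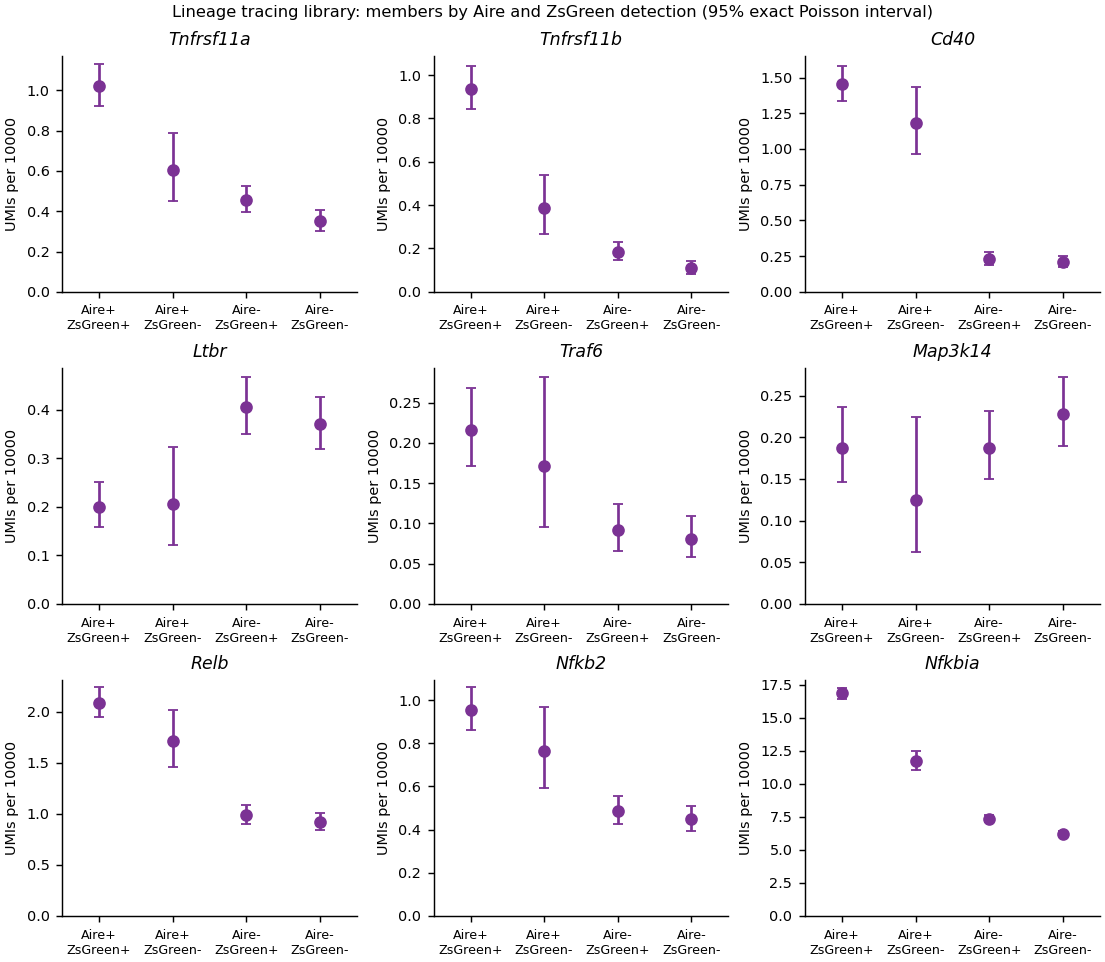
Levels of the 9 members in the lineage tracing library, in UMIs per 10000 (vertical axes), in cells split by Aire and ZsGreen transcripts (horizontal axes), with exact 95% Poisson intervals. Tnfrsf11a stands at 1.02 in cells with both and at 0.351 in cells with neither, and Ltbr stands at 0.405 in cells with ZsGreen only.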

How the data were processed

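mTECs were profiled by droplet single-cell RNA sequencing. The authors counted UMIs with Cell Ranger 2.2.0 and normalized them with Seurat 2.3.4, and the deposited values are natural log values, ln(1 + UMIs per 10000 of the cell): each cell summed to 10000, although the methods state another scale factor. Whole UMIs were recovered from these values (tolerance 0.001). The combined table, with 10760 unused columns, was not used. Cells were gated, not clustered, and doublets were not removed beyond the Ptprc gate and the exclusive classes.

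UMIs summed per library and class (at least 10 cells) were tested as log2(CPM + 5) with limma 3.58.1 in R 4.3.3 (trend, moderated), with library as a block, over 8773 genes with a mean of at least 10 CPM, without the 8 gate genes; p-values were adjusted by the Benjamini-Hochberg method. All 9 members passed the filter. Class sums of a library come from the same pool, and the library block takes out differences in level between pools. The p-values therefore measure how far class differences vary between pools, which differ in age and treatment. All classes share 1 estimate of this spread. Detection used cells thinned to 2000 UMIs. Intervals are exact 95% Poisson, binomial or conditional ratio intervals (SciPy 1.17.1) and cover counting error only. Those of the observed over the share-based level leave out the counting error of the control. The test was checked on simulated data against the known differences on the same scale, which understates the change of low genes. All 9 members were named whatever their values, as were, in each comparison, the other pathway genes past 2-fold and the adjusted threshold (the 6 widest where there were more), and the 3 genes most like 4 of the members. The members and lists were chosen with earlier results of these data known. Alternatives covered pseudocount, filter, scaling, block, class size, gating after thinning, exclusion of immune transcripts, cell weighting and each library left out. For the ZsGreen classes a cutoff of 2 UMIs of ZsGreen was also used.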

Additional observations from a re-analysis of the deposited data

How the results depend on the processing

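Class comparisons were paired within libraries by the library block, and the labels carry no replicate numbers. The cause of the changes below was not tested. Between Aire-high and Ccl21a-high cells all 144 recomputed member results kept their direction and side of the threshold, with 7 higher and 1 lower whichever library was left out. Leaving out a library gave 7 to 8 lower members for Trpm5-positive against Aire-high cells, 1 to 3 against Ccl21a-high cells, 2 to 4 for cycling cells and 1 to 3 higher members for cells of no gate (3 without the week 4 anti-RANKL library, 2 without that of week 2). The lower members of Trpm5-positive against Ccl21a-high cells numbered 2 under median-of-ratios scaling, 5 with gates on thinned values, and 3 with at least 30 cells, with equal cell weights or with the controls and the lineage tracing library alone. For cycling cells they numbered 1 without the library block or with gates on thinned values, and 2 with equal cell weights or with the controls and the lineage tracing library alone. For cells of no gate the higher members numbered 2 with at least 30 cells or with gates on thinned values and 4 with the controls and the lineage tracing library alone.

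In all cells, equal cell weights left 0 members higher at week 4. Of the recomputed ratios of observed to share-based level, 15 of 162 left their main interval. With ZsGreen counted from 2 UMIs, 6 of 36 member levels of the ZsGreen classes left theirs. In the Aire-high gate, excluding immune transcripts gave 0 lower members at week 2 and 1 at week 6, gates on thinned values gave 2 lower at week 4, 3 lower and 0 higher at week 6, and equal cell weights gave 3 lower at week 6 and 1 higher at week 10. In the Ccl21a-high gate, excluding immune transcripts gave 2 lower at weeks 2 and 4 and 1 at weeks 6 and 10, and equal cell weights gave 1 at weeks 6 and 10. Folds that changed side of 1 in the Aire-high gate were Nfkbia at week 4 over the week 2 control (0.942) and Cd40 at week 6 over the week 10 control (0.946), both with gates on thinned values, and Cd40 at week 10 (1.00, equal cell weights).

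Depth limited the rarer members: 1 UMI in a cell thinned to 2000 exceeds the Aire cutoff, and the Aire-high gate held 22 cells at week 4.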
